A study of Homo sapiens with 3 samples.

Results

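SGK kinases and the epithelial sodium channel that they regulate were followed through 9 genes: the kinases SGK1, SGK2 and SGK3, the channel subunits SCNN1A, SCNN1B and SCNN1G, the ubiquitin ligase NEDD4L, the sodium pump subunit ATP1B1 and the membrane protein stomatin (STOM). The members were chosen by name, with earlier results of these data known, so counts of them set beside all genes are a description only. All 19 probes that the platform annotation assigns to them were taken, out of 47315 probes and 20043 named genes. The cells are labelled HCC1937, an established human breast cancer line that the labels class as basal, and were kept in DMEM medium that held glucose at 3 mM and glutamine at 0.5 mM. One array held RNA from untreated cells, one from cells given 200 nM dexamethasone, a synthetic glucocorticoid, for 16 h, and one from cells given 200 nM dexamethasone and 1 µM retinoic acid for 16 h, called the combination here. There were 3 arrays in all, 1 per group, so differences are given without replicates and without a test.

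In salt-absorbing epithelia, sodium enters through the epithelial sodium channel ENaC, built from alpha (SCNN1A), beta (SCNN1B) and gamma (SCNN1G) subunits, and leaves on the other side through the sodium pump. NEDD4L attaches ubiquitin to the channel and so removes it from the membrane, and SGK1 phosphorylates NEDD4L, which weakens its hold on the channel. Corticosteroids acting through the glucocorticoid and mineralocorticoid receptors are known to raise SGK1 and channel subunits in kidney, colon and lung.

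The arrays carried 16635 to 17091 detected probes, at a detection p under 0.01, and median unnormalized intensities from 131.6 to 159.0. The array identifiers in the labels share their first part for the untreated and combination arrays and differ there for the dexamethasone array. That part was read as the slide, which is an inference, with the dexamethasone array on slide 2 and the others on slide 1. For both comparisons that use the dexamethasone array, slide and treatment cannot be told apart. Combination against untreated is, by this reading, a comparison within 1 slide. All 4 epithelial markers (EPCAM, KRT8, KRT18, CDH1) and all 4 luminal markers (ESR1, GATA3, FOXA1, KRT19) were detected on each array. Of the basal markers with a named probe, EGFR was detected on each array, KRT5 on the dexamethasone array alone and KRT14 on none. This does not sit well with the basal label. EGFR intensities were low, at 147.5 in untreated cells, 206 after dexamethasone and 232.5 with the combination. In untreated cells its normalized log2 level of 5.64 lay near the array's lowest detected value of 5.59. Whether the cells are HCC1937 was not tested. Of the luminal markers, ESR1 was 3.33-fold, GATA3 3.00-fold and FOXA1 2.47-fold lower on the dexamethasone array than in untreated cells, while KRT19 was 1.25-fold higher. The basal marker KRT5 was at least 7.54-fold higher there. With the combination ESR1 was 2.02-fold lower than in untreated cells, GATA3 was 2.01-fold lower and FOXA1 1.29-fold lower, while KRT19 was 1.12-fold higher. The part of these markers in the results below was not tested. Leukocyte markers were undetected apart from CD14 on the combination array, and of 4 fibroblast markers between 0 and 2 were detected on an array.

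Values are log2 intensities after background correction and quantile normalization, and a difference of at least 1, a 2-fold difference, is called higher or lower. The bead standard error (SE) covers only the spread of beads within an array. "At least" marks a gene that was undetected on one array, where the lowest detected value of that array took its place and the bead SE is that of the detected array alone. Of the 9 genes, 8 were measured in each comparison, and SGK2 was detected nowhere. After dexamethasone 4 were higher and 0 lower, with 10.3% of 10852 measured genes called (5.73% higher and 4.57% lower). With the combination 5 were higher and 0 lower, with 11.3% of 10705 genes called (5.84% higher and 5.43% lower). Between the combination and dexamethasone 2 were higher and 2 lower, with 6.57% of 10734 called (2.99% higher and 3.58% lower). The median log2 differences of the measured members were 1.35, 1.38 and -0.23, against 0, -0.01 and -0.01 over all measured genes. SCNN1B and SCNN1G entered both comparisons with untreated cells only because they were detected on the treated array, so they could not have been called lower there, and the first 2 medians include them. Over the members detected on both arrays those medians were 0.68 and 1.27. Both of those comparisons use the same untreated array, and their values are not independent of each other.

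**Figure D1:**
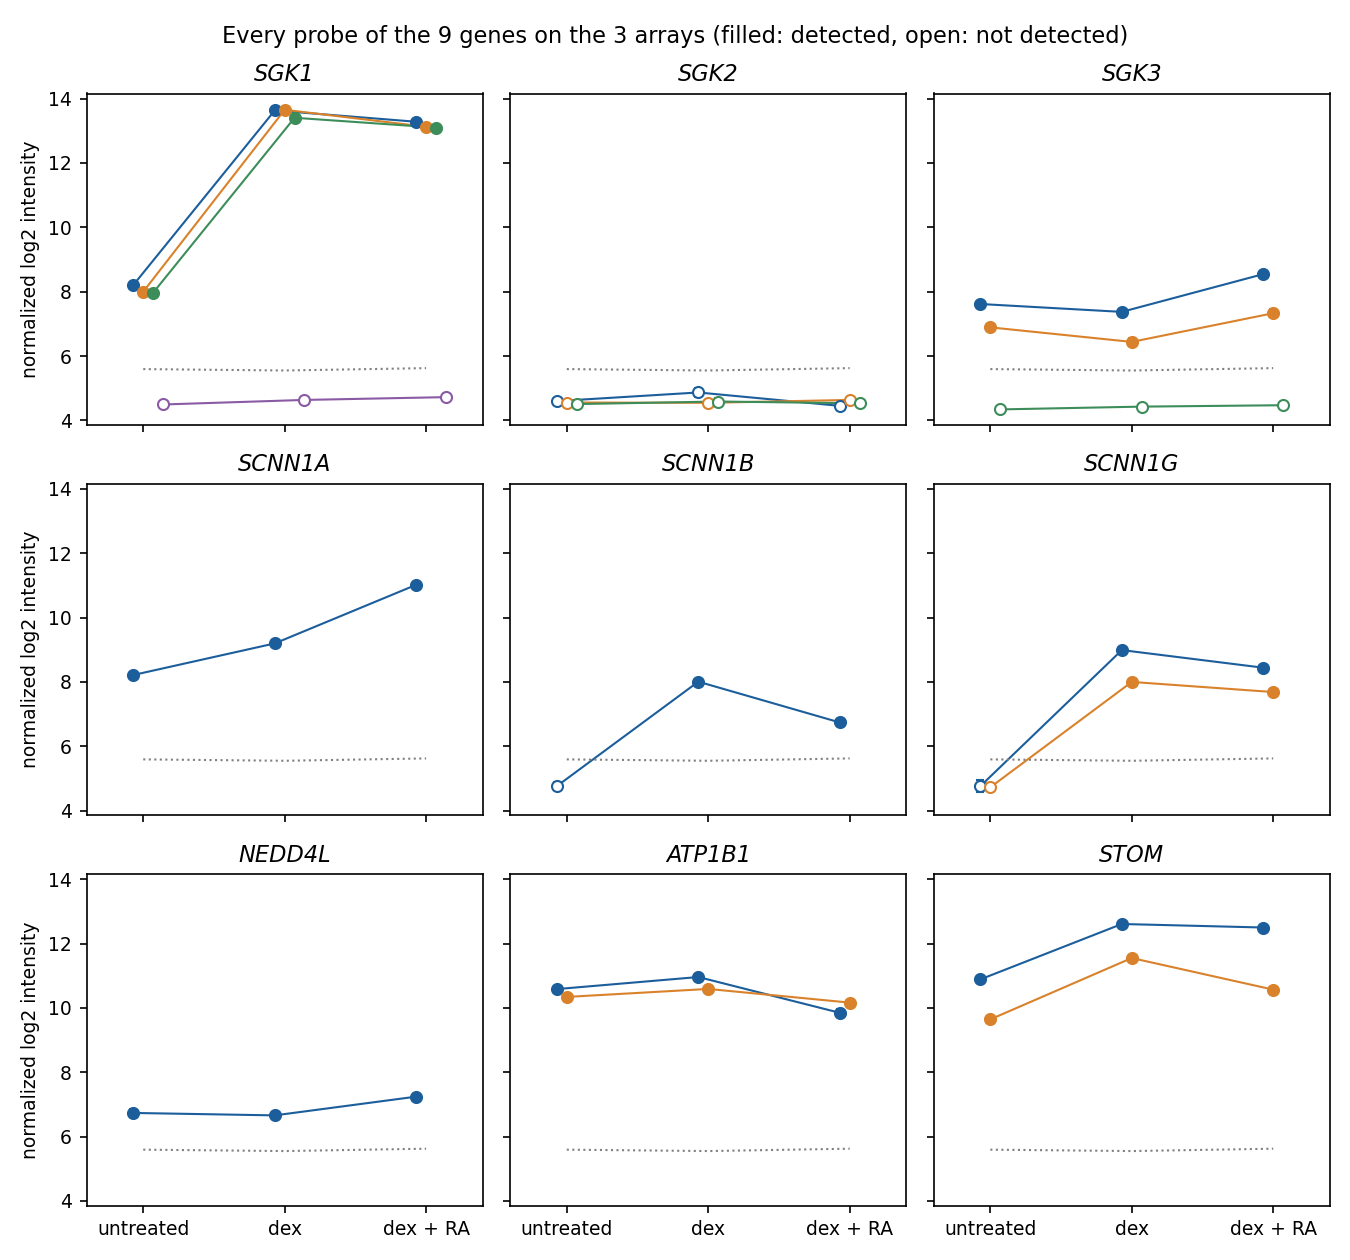
Normalized log2 intensity of every probe of the 9 genes (y axis) on the 3 arrays (x axis; dex, dexamethasone; RA, retinoic acid). Each colour is 1 probe, filled points are detected, open points are not, bars are the bead SE (mostly smaller than the points), and the dotted line is the lowest detected value of each array. The 3 detected SGK1 probes lie together near 8 in untreated cells and above 13 on both treated arrays, and SCNN1B and SCNN1G lie below the dotted line only in untreated cells.

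SGK1, a serine/threonine kinase that keeps sodium channels at the membrane, showed the largest difference among the members. Its brightest probe read an unnormalized intensity of 314 ± 10.1 (bead SE) in untreated cells, 13421.1 ± 513.9 after dexamethasone and 12357.6 ± 292 with the combination. Both treated arrays were thus far above the untreated one, where the gene was already detected. The normalized difference was 43.0-fold after dexamethasone (log2 difference 5.43, bead SE 0.09) and 33.7-fold with the combination (5.07, bead SE 0.09). This placed SGK1 at rank 11 from the top of 10852 genes in the first comparison and at rank 9 of 10705 in the second. Between the treated arrays the difference was -0.35 (bead SE 0.06), a 1.28-fold lower level with the combination and within 2-fold.

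The other detected probes of SGK1 gave close values. Its other 2 detected probes were 50.4-fold and 43.3-fold higher after dexamethasone, and 34.9-fold and 35.1-fold higher with the combination. On both of them the combination was also slightly below dexamethasone, by log2 differences of -0.53 and -0.30. The fourth probe, which the annotation ties to an expressed sequence tag and not to the reference transcript, was undetected on all 3 arrays (intensities 113.2, 134.5 and 148.8).

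RefSeq lists 3 starts for SGK1 on the minus strand of chromosome 6 in GRCh38.p14, and the windows of 250 bases before to 50 bases after a start are shown for the 2 of them nearest the 3′ end of the gene, since SGK1 carries the largest difference. Capitals mark matches on either strand to the GC box GGGCGG, to TATAAA and to AGAACA, the half-site of the glucocorticoid response element. The first window is chr6:134174817-134175116 and the second is chr6:134177812-134178111.
SGK1 start 1: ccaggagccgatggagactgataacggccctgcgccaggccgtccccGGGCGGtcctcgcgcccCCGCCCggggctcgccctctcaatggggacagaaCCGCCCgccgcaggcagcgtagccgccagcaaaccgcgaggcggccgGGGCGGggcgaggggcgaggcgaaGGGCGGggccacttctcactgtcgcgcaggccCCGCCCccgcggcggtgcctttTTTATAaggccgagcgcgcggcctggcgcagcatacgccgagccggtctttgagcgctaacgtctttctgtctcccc
SGK1 start 2: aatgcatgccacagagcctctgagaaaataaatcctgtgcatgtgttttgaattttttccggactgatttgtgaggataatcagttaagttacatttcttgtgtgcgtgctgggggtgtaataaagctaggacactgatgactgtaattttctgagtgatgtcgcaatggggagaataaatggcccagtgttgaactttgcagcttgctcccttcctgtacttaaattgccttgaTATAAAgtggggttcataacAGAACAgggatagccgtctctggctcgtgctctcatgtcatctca
The first window holds 6 GC boxes and the letters TTTATA, which read TATAAA on the reverse strand. The second holds the letters TATAAA and 1 half-site. Only these exact letters were searched, so other forms of a TATA box, on either strand, are not marked. GC boxes occur in 45.0% of all 35116 promoter windows of this length, the TATA letters in 11.5% and the half-site in 14.8%. Neither window holds the full glucocorticoid response element, searched as GNACA, NNN and TGTNC in 1 run, which reads the same on both strands and is present in 0.390% of all windows. This says only that the letters are not in these windows, and the best known glucocorticoid response element of SGK1 lies further upstream. The probes were not assigned to a start here.

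The other two SGK kinases did not share this pattern. SGK3, which carries a lipid-binding domain that places it on endosomes, read normalized log2 levels of 7.62 in untreated cells, 7.37 after dexamethasone and 8.55 with the combination on its brightest probe. It was therefore lowest on the dexamethasone array and highest on the combination array. SGK3 was 2.26-fold higher with the combination than after dexamethasone (log2 difference 1.17, bead SE 0.13), rank 174 of 10734. The second detected probe kept the same order of arrays, at 6.89, 6.44 and 7.33, but its difference of 0.89 (bead SE 0.17) stayed within 2-fold. Against untreated cells the brightest probe differed by -0.24 (bead SE 0.12) after dexamethasone and by 0.93 (bead SE 0.10) with the combination, both within 2-fold, although both scalings to the 75th percentile took the second value past it, to 1.07 and 1.01. SGK2, a kinase best known from liver and kidney, was undetected by its 3 probes on all 3 arrays, with intensities between 113.9 and 145.2, so no difference is given for it.

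The alpha subunit of the channel stood highest on the combination array. SCNN1A, the subunit without which the channel conducts little, had an intensity of 315.5 ± 9.61 (bead SE) in untreated cells, 699.1 ± 24.4 after dexamethasone and 2838.6 ± 52.5 with the combination. The level was thus lowest in untreated cells, intermediate after dexamethasone and highest with the combination, each step larger than the bead error. The difference after dexamethasone was 0.98 (bead SE 0.10), a 1.98-fold higher level just inside 2-fold. With the combination SCNN1A was 6.98-fold above untreated cells (log2 difference 2.80, bead SE 0.08), within 1 slide as inferred above. It was 3.53-fold above dexamethasone alone (1.82, bead SE 0.08), rank 55 of 10734.

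SCNN1B and SCNN1G, the regulatory subunits, were undetected in untreated cells and detected on both treated arrays. SCNN1B read 125.4 ± 3.97 (bead SE) in untreated cells, 376.3 ± 12.4 after dexamethasone and 260.9 ± 8.46 with the combination. It was at least 5.33-fold higher after dexamethasone (log2 difference 2.41, bead SE 0.08) and at least 2.22-fold higher with the combination (1.15, bead SE 0.09). The second of these calls was lost in 5 of 8 alternatives, among them the deposited values, where the log2 difference was 0.39. SCNN1B was 2.41-fold lower with the combination than after dexamethasone (-1.27, bead SE 0.12), a difference of -0.68 with the deposited values. Of the 3 channel subunits it was the one called lower in that comparison.

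SCNN1G read 125.4 ± 6.56 (bead SE), 625.8 ± 27.9 and 582.6 ± 29.7 in the order untreated, dexamethasone and combination. Its treated arrays were close to each other and far above the untreated one. The gene was at least 10.5-fold higher after dexamethasone (log2 difference 3.40, bead SE 0.08) and at least 7.21-fold higher with the combination (2.85, bead SE 0.09). Its second probe was at least 5.31-fold and at least 4.27-fold higher. Between the treated arrays the brightest probe differed by -0.55 (bead SE 0.12) and the second by -0.31 (bead SE 0.12), both within 2-fold. With the deposited values, which keep the background, the SCNN1G differences from untreated cells were 1.79 and 1.38, still past 2-fold.

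SCNN1B and SCNN1G are neighbours on chromosome 16 (the annotated genes begin at 23278231 and 23182745 in GRCh38.p14), whereas SCNN1A lies on chromosome 12. The promoter window of SCNN1B, on the plus strand at chr16:23302052-23302351, is shown because this gene went from undetected to detected on both treated arrays, and capitals mark its 1 GC box. It belongs to the start that RefSeq's window table lists, which lies inside the annotated gene, downstream of its outermost start.
SCNN1B: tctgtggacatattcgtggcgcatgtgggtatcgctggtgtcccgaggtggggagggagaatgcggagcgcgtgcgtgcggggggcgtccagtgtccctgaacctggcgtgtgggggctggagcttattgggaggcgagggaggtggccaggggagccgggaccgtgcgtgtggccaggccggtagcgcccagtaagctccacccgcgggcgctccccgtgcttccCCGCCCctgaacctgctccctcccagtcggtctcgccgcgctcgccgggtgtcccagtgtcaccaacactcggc
Neither the long glucocorticoid element, its half-site, the TATA letters nor AGGTCA, the half-site shared by retinoic acid and other nuclear receptors (13.8% of all windows), occurs in it. Promoter windows were found for 5 of the 9 members, and those of SGK2, SGK3, SCNN1A and SCNN1G were not used here.

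**Figure D2:**
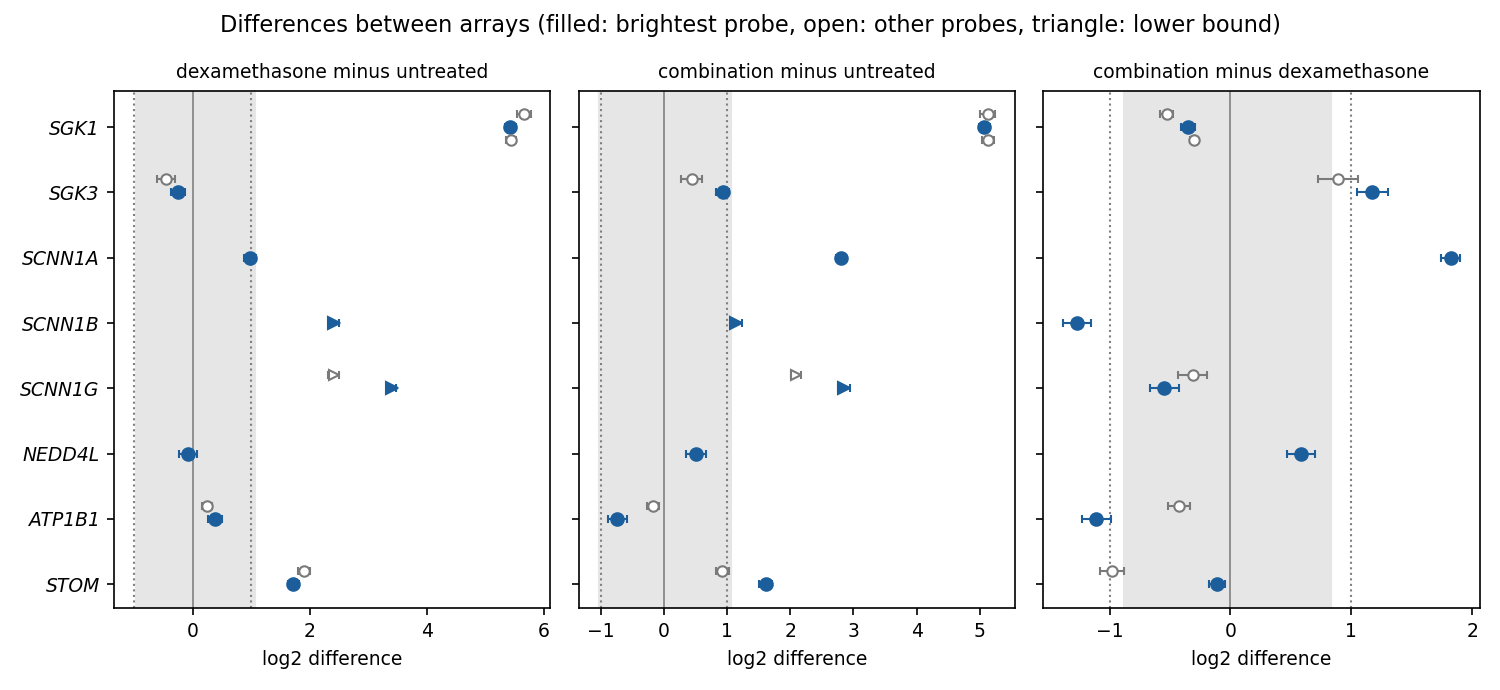
Log2 differences (x axis) of the 8 measured genes (y axis) in the 3 comparisons, on scales that differ between panels. Filled points are the brightest probe, open points the other detected probes, triangles are lower bounds, bars are the bead SE, dotted lines mark 2-fold, and the grey band holds the central 90% of all measured genes. SGK1, SCNN1G, SCNN1B and STOM lie to the right of the band after dexamethasone, and SCNN1A and SGK3 lie to its right, with SCNN1B and ATP1B1 to its left, where the treated arrays are compared.

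STOM, a membrane scaffold protein best known from red blood cells that modulates ion channels, was well detected in untreated cells and higher on both treated arrays. Its brightest probe read 1490.3 ± 85.2 (bead SE) in untreated cells, 6308.4 ± 201.4 after dexamethasone and 7365.1 ± 238.8 with the combination. The normalized level was 3.30-fold higher after dexamethasone (log2 difference 1.72, bead SE 0.10) and 3.06-fold higher with the combination (1.61, bead SE 0.11). The second probe was 3.75-fold higher after dexamethasone. On that probe the difference with the combination was 0.92 (bead SE 0.10), inside 2-fold. The 2 probes thus disagree on whether the combination was below dexamethasone, with log2 differences of -0.11 (bead SE 0.07) and -0.98 (bead SE 0.10). The STOM promoter, on the minus strand at chr9:121370201-121370500, is shown because this gene, like SGK1 and SCNN1B, was higher on both treated arrays, and capitals mark its 4 GC boxes, the last 2 of which share 1 base.
STOM: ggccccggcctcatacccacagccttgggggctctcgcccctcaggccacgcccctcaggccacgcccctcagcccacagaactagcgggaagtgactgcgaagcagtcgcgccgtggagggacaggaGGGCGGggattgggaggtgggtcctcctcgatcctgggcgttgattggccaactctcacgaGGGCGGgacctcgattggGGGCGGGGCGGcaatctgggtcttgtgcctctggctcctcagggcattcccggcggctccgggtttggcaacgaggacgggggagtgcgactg

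NEDD4L and ATP1B1 stayed within 2-fold of untreated cells on both treated arrays. NEDD4L, the ligase that SGK1 holds in check, read normalized log2 levels of 6.73 in untreated cells, 6.66 after dexamethasone and 7.24 with the combination. Its difference was -0.08 (bead SE 0.15) after dexamethasone, smaller than the bead error, and 0.51 (bead SE 0.15) with the combination. ATP1B1, the beta subunit that carries the sodium pump to the membrane, read 10.6, 11.0 and 9.85 in the same order. It was thus lowest with the combination, 2.16-fold below dexamethasone (log2 difference -1.11, bead SE 0.12). Its second probe had the same order of arrays but a difference of -0.43 (bead SE 0.09), inside 2-fold, so the size for this gene depends on the probe. Against untreated cells the brightest ATP1B1 probe differed by 0.38 after dexamethasone and by -0.74 with the combination.

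The members thus fell into several orders over the arrays. By normalized level, SGK1, SCNN1B, SCNN1G and both STOM probes were highest after dexamethasone and lowest in untreated cells. For the brightest STOM probe the treated arrays differed by only -0.11 (bead SE 0.07), so their order is not settled. SCNN1A was highest with the combination and lowest in untreated cells. SGK3 and NEDD4L were highest with the combination and lowest after dexamethasone, although for NEDD4L the 2 lower arrays differed by less than the bead error. ATP1B1 was highest after dexamethasone and lowest with the combination on both probes.

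The genes closest to 4 of the members, by the Euclidean distance between log2 profiles over the 3 arrays after centring each on its mean, were taken from 11102 genes detected on at least 1 array. For SGK1 they were BMF, an apoptosis promoter (distance 0.48), the ubiquitin ligase gene FBXO32 (0.66) and the tubulin gene TUBA3E (0.82). Each was more than 2-fold lower with the combination than after dexamethasone (log2 differences -1.03, -1.17 and -1.44). SGK1 was within 2-fold there, at -0.35. For SCNN1A the closest genes were the kinase gene RIPK4 (0.22), the phosphatase gene SYNJ2 (0.22) and MYOT (0.22). DUSP1, a MAP kinase phosphatase (0.12), the transporter gene SLC22A23 (0.17) and STAC2 (0.30) were closest to SCNN1B. SELENOP, which encodes a selenium carrier (0.15), the cytochrome gene CYP4F3 (0.16) and the transcription factor gene KLF9 (0.19) were closest to SCNN1G. A profile of 3 arrays has few ways to differ, so these distances are a description only. SCNN1B, SCNN1G, BMF, TUBA3E, SYNJ2, MYOT, STAC2, SELENOP and CYP4F3 were undetected in untreated cells, so their distances rest in part on readings at background.

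Around these members, 84 other genes of the pathway were listed in 10 groups, of which 72 had a named probe and 46 were detected on at least 1 array. On the dexamethasone array 9 of the 44 genes measured were called higher than in untreated cells and 3 lower, where 5.73% and 4.57% of all measured genes were called. With the combination 7 of 45 were higher and 3 lower, against 5.84% and 5.43% of all genes. Between the treated arrays 2 of 46 were higher and 4 lower, against 2.99% and 3.58%. The medians were 0.18, 0.06 and -0.20. Genes detected only on the treated array, such as KCNMA1 and FURIN after dexamethasone, could not have been called lower there. Over genes detected on both arrays, 7 of 39 were higher and 3 lower after dexamethasone, and 6 of 40 higher and 3 lower with the combination. By that rule 9.81% and 10.9% of all genes were called in either direction. The list was drawn up with earlier results of these data known, so these counts are a description only.

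**Figure D3:**
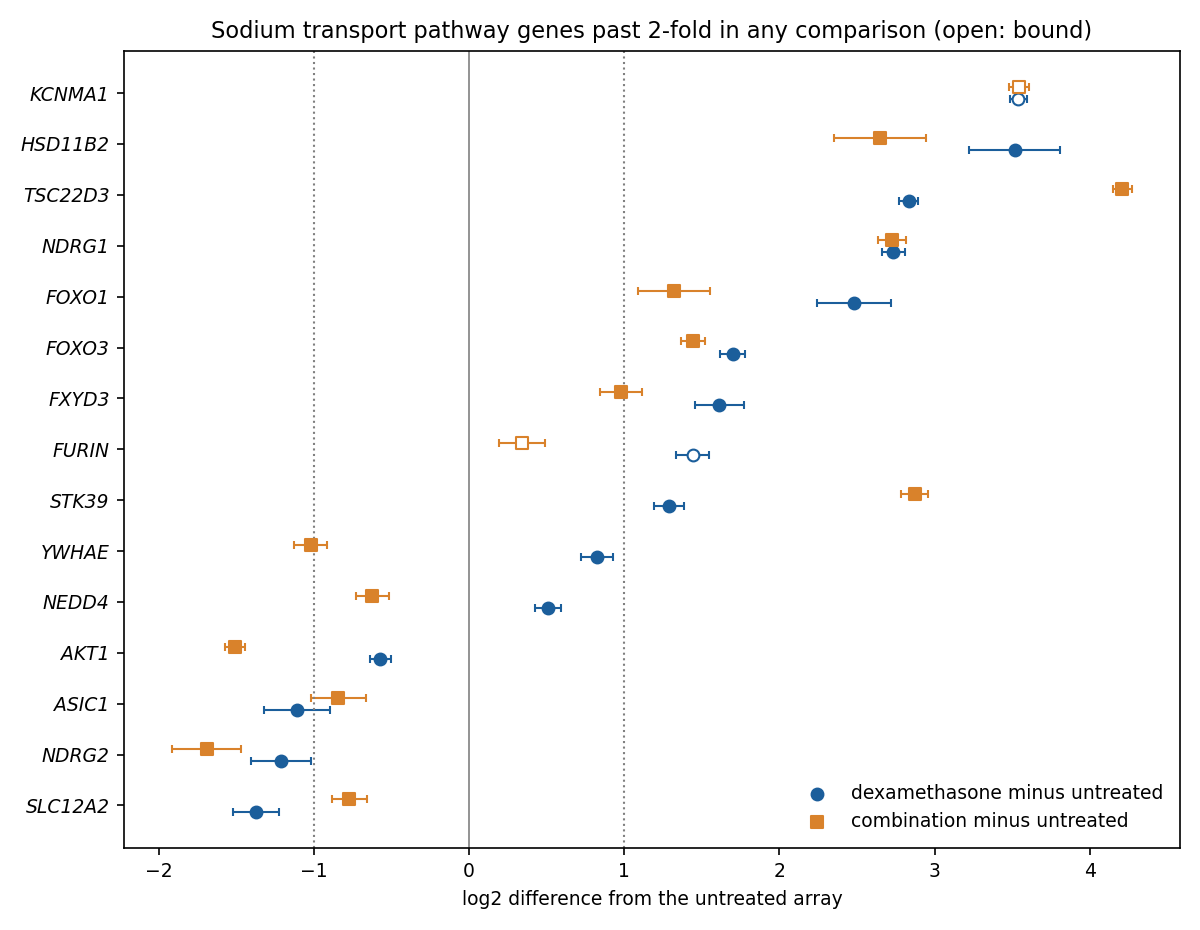
Log2 difference from the untreated array (x axis) of the 15 other pathway genes past 2-fold in at least 1 comparison (y axis), after dexamethasone (circles) and with the combination (squares). Open symbols are bounds from genes undetected in untreated cells, bars are the bead SE and dotted lines mark 2-fold. KCNMA1 and HSD11B2 lead after dexamethasone and TSC22D3 with the combination.

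Steroid access differed at one enzyme. HSD11B2, which inactivates cortisol and so protects the mineralocorticoid receptor in sodium-transporting cells, read 157 in untreated cells, 837.6 after dexamethasone and 655 with the combination. It was 11.4-fold higher after dexamethasone (log2 difference 3.52, bead SE 0.29) and 6.27-fold higher with the combination (2.65, bead SE 0.29). The glucocorticoid receptor gene NR3C1 was detected on all 3 arrays and stayed within 2-fold. The mineralocorticoid receptor gene NR3C2 was detected on the dexamethasone array alone, at least 1.34-fold above untreated cells and within 2-fold.

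Among the 5 genes of SGK substrates, 3 were higher and 1 lower on each treated array than in untreated cells, where 5.73% and 5.84% of all genes were called higher and 4.57% and 5.43% lower. NDRG1, whose phosphorylation is widely used as a readout of SGK1 activity, was 6.65-fold higher after dexamethasone (log2 difference 2.73, bead SE 0.07) and 6.62-fold higher with the combination (2.73, bead SE 0.09). FOXO3, a transcription factor that SGK kinases keep out of the nucleus, was 3.25-fold and 2.72-fold higher, and its other detected probe 2.65-fold and 3.29-fold. FOXO1 was 5.59-fold and 2.50-fold higher, and was 2.24-fold lower with the combination than after dexamethasone. NDRG2 was 2.32-fold and 3.23-fold lower, at low intensities of 220.2 in untreated cells, 191.1 after dexamethasone and 184.9 with the combination. Its log2 level with the combination, 5.62, lay at the lowest detected value of that array. GSK3B differed by -0.59 and -0.65, within 2-fold. These are transcript levels and say nothing of phosphorylation.

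TSC22D3, which encodes the leucine zipper protein GILZ that promotes channel activity, was 7.12-fold higher after dexamethasone and 18.5-fold higher with the combination. It was 2.60-fold higher with the combination than after dexamethasone (log2 difference 1.38, bead SE 0.06), and its other 3 detected probes were 2.42-fold, 2.30-fold and at least 2.24-fold higher there. STK39, the kinase SPAK that activates sodium-chloride cotransporters, read 533.9, 1548.8 and 5820.3 in untreated, dexamethasone and combination cells. It was 2.44-fold and 7.33-fold above untreated cells and 3.00-fold higher with the combination than after dexamethasone. STK39 and TSC22D3 were the 2 genes of the list called higher in that comparison by their brightest probe. Both followed the order of arrays seen for SCNN1A. The cotransporter gene SLC12A2, described below, was 2.90-fold higher there on its other probe. Its brightest probe stayed within 2-fold (log2 difference 0.60).

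The calcium-activated potassium channel gene KCNMA1 was undetected in untreated cells (intensity 141) and read 675.9 and 864.9 on the treated arrays. It was at least 11.6-fold higher after dexamethasone and at least 11.7-fold higher with the combination. FXYD3, a sodium pump regulator, was 3.06-fold higher after dexamethasone and 1.97-fold with the combination. Its other 2 detected probes were 2.65-fold and 2.62-fold higher, and at least 1.43-fold and at least 1.04-fold higher. The bumetanide-sensitive cotransporter gene SLC12A2 was 2.58-fold lower after dexamethasone (3.33-fold on its other probe). The acid-sensing channel gene ASIC1 was 2.15-fold lower there. With the combination neither gene was called against untreated cells. The log2 difference was then -0.77 for SLC12A2 (-0.20 on its other probe) and -0.84 for ASIC1. The ASIC1 intensities were low, at 185.4 in untreated cells and 171.3 after dexamethasone. AKT1, a kinase related to SGK, was 2.84-fold lower with the combination (2.75-fold on its second probe). FXYD3, SLC12A2, ASIC1 and AKT1 were picked with their values known.

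The last group of genes acts on the channel protein. PRSS8, the protease prostasin that activates the channel, was within 2-fold in all 3 comparisons. FURIN, which cleaves the alpha and gamma subunits, was at least 2.71-fold higher after dexamethasone. With the combination its log2 difference from untreated cells was at least 0.34 and was not called. FURIN was 2.15-fold lower with the combination than after dexamethasone. NEDD4, a relative of NEDD4L, was 2.19-fold lower in that last comparison on its brightest probe, but its other probe was 1.34-fold higher. YWHAE, a 14-3-3 protein gene, was 3.59-fold lower there and its other probe 1.15-fold lower, and after dexamethasone the 2 YWHAE probes differed in opposite directions (0.82 and -0.76). These probes therefore settle neither the direction for NEDD4 nor the size for YWHAE in that comparison, nor the direction for YWHAE after dexamethasone.

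**Figure D4:**
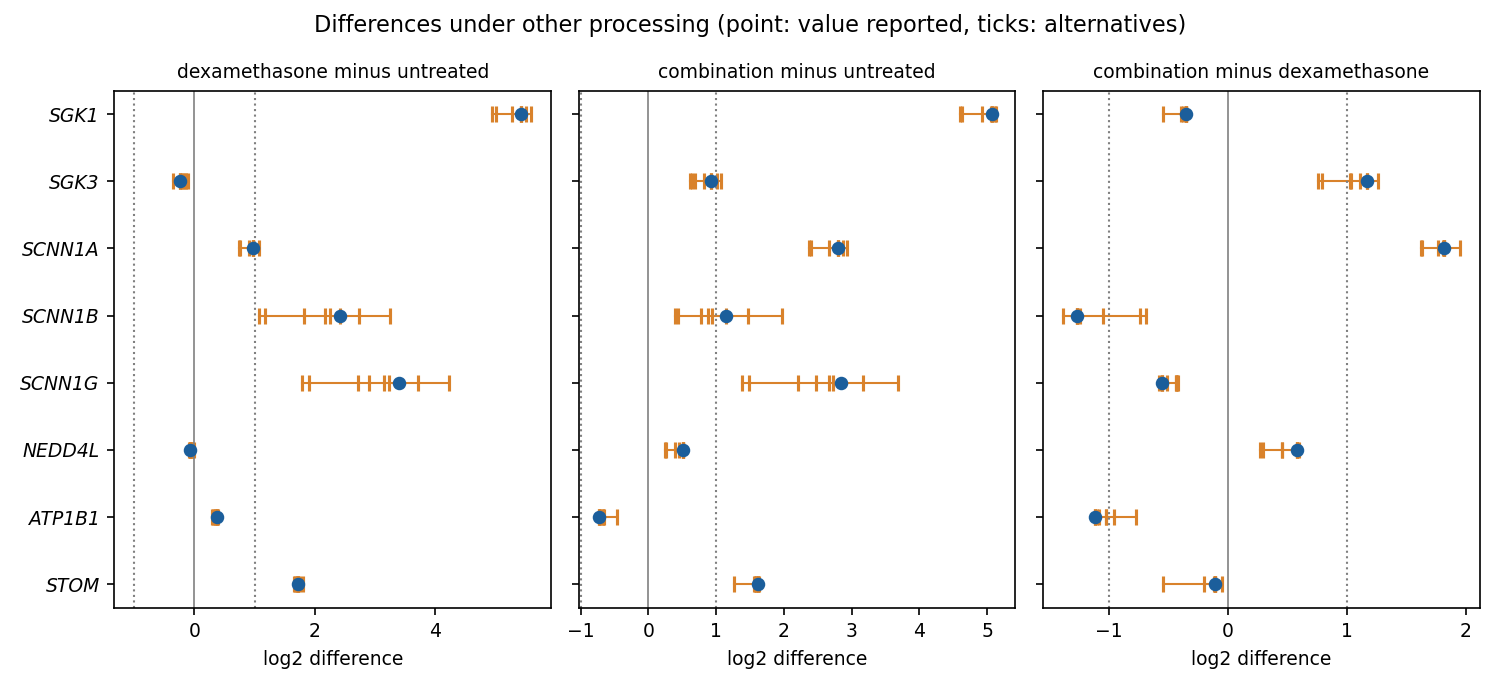
Log2 differences (x axis) of the 8 measured genes (y axis) as reported (points) and under up to 9 other processing settings (ticks joined by a line), on scales that differ between panels. Dotted lines mark 2-fold. SGK1, STOM and SCNN1G keep to the right of 2-fold in both comparisons with untreated cells, whereas SCNN1B with the combination spans 0.39 to 1.98.

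The size of several differences depended on the processing. SGK1 ranged from 31.0-fold to 48.5-fold after dexamethasone over 9 alternatives, and STOM from 3.16-fold to 3.52-fold, and from 2.41-fold to 3.09-fold with the combination. SCNN1G ranged from 3.46-fold to 18.7-fold over the 8 alternatives that give a value, and SCNN1B from 2.11-fold to 9.49-fold. SCNN1A with the combination ranged from 5.16-fold to 7.64-fold against untreated cells. The SGK3 difference between treated arrays ranged from 0.76 to 1.26 and was past 2-fold in 7 of 9 alternatives, and so was that of ATP1B1, between -1.11 and -0.77.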

How the data were processed

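Total RNA of 3 HCC1937 samples was labelled with biotin and hybridised to Illumina bead arrays, as the labels describe. The authors deposited a mean intensity over beads for each probe with no scaling between arrays and no background subtraction, judging from the file headers and the values. Beside it stand a deposited count of beads, the standard error over beads (also an intensity) and a detection p-value against the array's negative controls. A second deposited table of intensity values, apparently quantile normalized by the authors, served as an alternative. Scanning software: not given in the sources used here.

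Normalization used R 4.3.3 with limma 3.58.1 (normexp with negative controls inferred from the detection p-values, offset 16, quantile normalization, log2), then Python 3.11.15 with numpy 2.4.6 and pandas 2.3.3, and figures used matplotlib 3.10.9. Probes were named from the platform annotation: 30109 have 1 symbol, 8 several and 17198 are unnamed here. A gene is its brightest probe, measured if its detection p is under 0.01 on at least 1 array of the pair. The bead SE was carried through each array's map from intensity to normalized log2. The groups came from the labels, 3 comparisons were described and no test was run. Named were all members, the pathway genes past 2-fold (up to 6 per comparison), 7 further pathway genes, and the 3 genes nearest in pattern to 4 members. The members and lists were chosen with earlier results of these data known. The procedure was tested on simulated data, copies of the untreated array with bead noise and with changes in probes that started well above background. Genes that start undetected were not covered by it. Promoter windows are RefSeq's, GRCh38.p14.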

Additional observations from a re-analysis of the deposited data

How the results depend on the processing

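Over 9 alternatives, 1 of them chosen after seeing the data (scaling to the 75th percentile over the 14821 probes detected on all arrays), no called member changed direction. Among genes detected on both arrays, the members past 2-fold fell from 4 to 2 after dexamethasone and from 5 to 3 with the combination, since SCNN1B and SCNN1G leave the comparison. Between the treated arrays the members past 2-fold fell from 4 to 2 and the pathway genes from 6 to 3, both without background correction and with the deposited values, which keep a background that draws low values together. The same settings called 4.45% and 4.18% of all genes after dexamethasone in place of 10.3%, 4.79% and 4.48% with the combination in place of 11.3%, and 2.43% and 2.33% between the treated arrays in place of 6.57%. With an offset of 50, 4.32% of genes were called in that last comparison. The added scaling moved the median of all genes there to -0.10 and the share of calls that were higher from 45.5% to 31.3%. There SCNN1A, SGK3, SCNN1B and ATP1B1 kept their calls before allowing for that shift, and ATP1B1 lay closest to the limit, at -1.10. It also brought SCNN1A after dexamethasone to 1.07 and SGK3 with the combination to 1.01, both past 2-fold, and scaling to the 75th percentile of all probes brought the latter to 1.07. No paired analysis was possible because each group holds 1 array, and for the same reason no replicate could be left out. Differences near the detection limit (SCNN1B, SCNN1G, NEDD4L, HSD11B2, NDRG2, ASIC1) are limited by signal over background. Pathway genes called lower after dexamethasone fell from 3 to 1, both without background correction and with the deposited values.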

Other observations

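SGK1 and the sodium channel are best studied in the kidney principal cell, and 3 other markers of that cell were looked up. AVPR2, the vasopressin receptor gene of the collecting duct, was detected on all 3 arrays at low intensities of 163.2 in untreated cells, 218.3 after dexamethasone and 196.8 with the combination. AQP2, the water channel gene that vasopressin controls, was detected only in untreated cells, at an intensity of 147.8, close to the detection limit, against 145.6 and 153.2 on the treated arrays. HSD11B2, described above, was the one of these 3 markers called higher on both treated arrays than in untreated cells.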
